A study of Homo sapiens with 20 samples.

Results

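The imprinted miRNA cluster of chromosome 14q32 was followed in TPC-1 cells, an established line from a human papillary thyroid carcinoma. Its members were taken by name from the miRNA count table, as every mature miRNA whose number is one of 39 known to be encoded there, with any arm suffix. This gave 76 of the 2656 mature miRNAs in the table. In coculture, with 6 libraries, TPC-1 cells were kept for 48 h with PMN-MDSCs, the polymorphonuclear kind of myeloid-derived suppressor cell, which are immature neutrophil-like cells that restrain T cells. The control was the same line left untreated, with 4 libraries, and RNA-seq was made for the same design. All libraries share the line, which the labels describe no further. Neither the origin of the PMN-MDSCs nor the mode of coculture, nor any step to part the cell types, is given in the sources used here. Separate cultures within a group are not stated either, and each p-value therefore rests on a spread between samples that may be technical.

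The DLK1-DIO3 domain of 14q32 is expressed from 1 parental copy. The paternal copy gives the protein-coding genes DLK1, RTL1 and DIO3, and the maternal copy gives noncoding RNAs, among them MEG3, MEG8 and MEG9, along with the miRNAs and many C/D box snoRNAs. Methylation of a control region upstream of MEG3 sets which copy is read, and MEG3 is often silenced in tumors. The miRNAs are abundant in brain, placenta and mesenchymal cells. They lie in 2 groups, a smaller one beside and opposite RTL1 and a larger one that runs from miR-379 to miR-656.

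In the deposited coordinates (GRCh38.p10 per the submitters' processing notes), the 41 hairpin genes matched to members lay on the plus strand of chromosome 14 between 100869060 and 101066801. The 9 hairpins of the RTL1-side group spanned 42.2 kb from 100869060 to 100911213, and the 32 of the larger group spanned 44.7 kb from 101022066 to 101066801. RTL1, on the minus strand from 100880712 to 100884847, contains the hairpins of miR-431, miR-433, miR-127, miR-432 and miR-136. MIR381HG, a plus-strand noncoding gene, contains those of miR-381, miR-487b, miR-539 and miR-889. Of the 76 members, 75 were matched to RefSeq mature sequences (GRCh38.p14), and the deposited sequence was the same for all 75. The first 3 sequences below belong to the most abundant members. The next 2 belong to the members with the smallest p-values. The last 4 are pairs that share a seed, the stretch of bases 2 to 8 that pairs with targets, which is in capitals.
miR-381-3p: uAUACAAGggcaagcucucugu
miR-654-3p: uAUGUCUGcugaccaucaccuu
miR-379-5p: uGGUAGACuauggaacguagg
miR-127-3p: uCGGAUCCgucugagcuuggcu
miR-377-5p: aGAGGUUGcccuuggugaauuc
miR-379-3p: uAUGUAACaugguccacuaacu
miR-411-3p: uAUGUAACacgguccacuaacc
miR-376a-3p: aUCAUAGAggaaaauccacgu
miR-376b-3p: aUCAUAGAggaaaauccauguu

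The members held 69 different seeds, and 7 of these were shared by 2 members each. One of the 7, GGUUGUC of miR-410-5p and miR-494-5p, also occurred in miR-323b-5p, another miRNA of the locus outside the name rule. The seed of miR-381-3p, AUACAAG, occurred in 1 other row, miR-300, which comes from the same locus and is also outside the rule. Seeds of further members also occurred in miRNAs outside the rule. Among them were the seed of miR-379-5p in miR-3529-5p and that of miR-377-5p in miR-6086. Near-identical names can divide reads uncertainly. Within an overlap of at least 18 bases, miR-376a-3p (44 reads in all libraries) and miR-376b-3p (8 reads) differed at 1 base, as did miR-376b-5p (9 reads) and miR-376c-5p (10 reads). The pairs miR-376a-3p and miR-376c-3p, miR-379-3p and miR-411-3p, miR-323a-3p and miR-323b-3p, and miR-410-5p and miR-323b-5p differed at 2. The name miR-376a-3p also stands for 2 hairpins, and so do the names miR-329-5p and miR-329-3p.

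The miRNA libraries held 3971608 to 5895539 reads, and the RNA-seq libraries 40237801 to 48197608. PAX8, a thyroid transcription factor, was at 624.5 ± 107.3 CPM in coculture and 507 ± 11.2 CPM in controls (CPM, reads scaled by TMM to a common library size, SD, n = 6 and 4), and the keratin KRT18 at 356 ± 58.6 and 350 ± 43.9 CPM. Of 13 thyroid and epithelial markers, 12 had a read. TSHR, SLC5A5 and NKX2-1, further thyroid genes, had 1, 4 and 1 reads over the coculture libraries and 0 over the controls. Other thyroid genes had more, FOXE1 with 2218 reads in coculture and 1765 in controls, and TG with 480 and 137. The epithelial markers EPCAM and CDH1 were low, with 13 and 5 reads in coculture and 20 and 0 in controls. In RNA-seq, cocultures 1 and 2 stood apart from the other libraries on the first principal component (39.3% of the variance). In miRNA-seq, control 4 stood apart in blood cell miRNAs. That library held 23130 CPM of miR-451a, an erythroid miRNA, against 243 to 1240 CPM in the coculture libraries and 809 to 1090 CPM in the other 3 controls. The RNA-seq library of coculture 1 also held reads of stromal genes, given beside MEG3.

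The cluster was present at a low level in every library. In coculture 341 to 672 reads fell on the 76 members per library (median 501), and in controls 397, 555, 560 and 699. Together the 10 libraries gave 5239 reads. For each read of the cluster there were 2912 to 6394 reads of miR-21-5p, the dominant miRNA of these cells. The most abundant member, miR-381-3p, averaged 12.4 CPM over the 10 libraries and ranked 387 in the table. Of the 76, 2 had no read in any library, 23 had 1 to 10 reads over all libraries, 33 had 11 to 100 and 18 had more than 100. A read was present in each of the 10 libraries for 26 members. Those 5 with the most reads took 36.6% of the cluster's reads, and miR-381-3p alone 12.2%. In bulk samples, fewer cells that make these miRNAs and less miRNA per cell cannot be told apart.

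**Figure D1:**
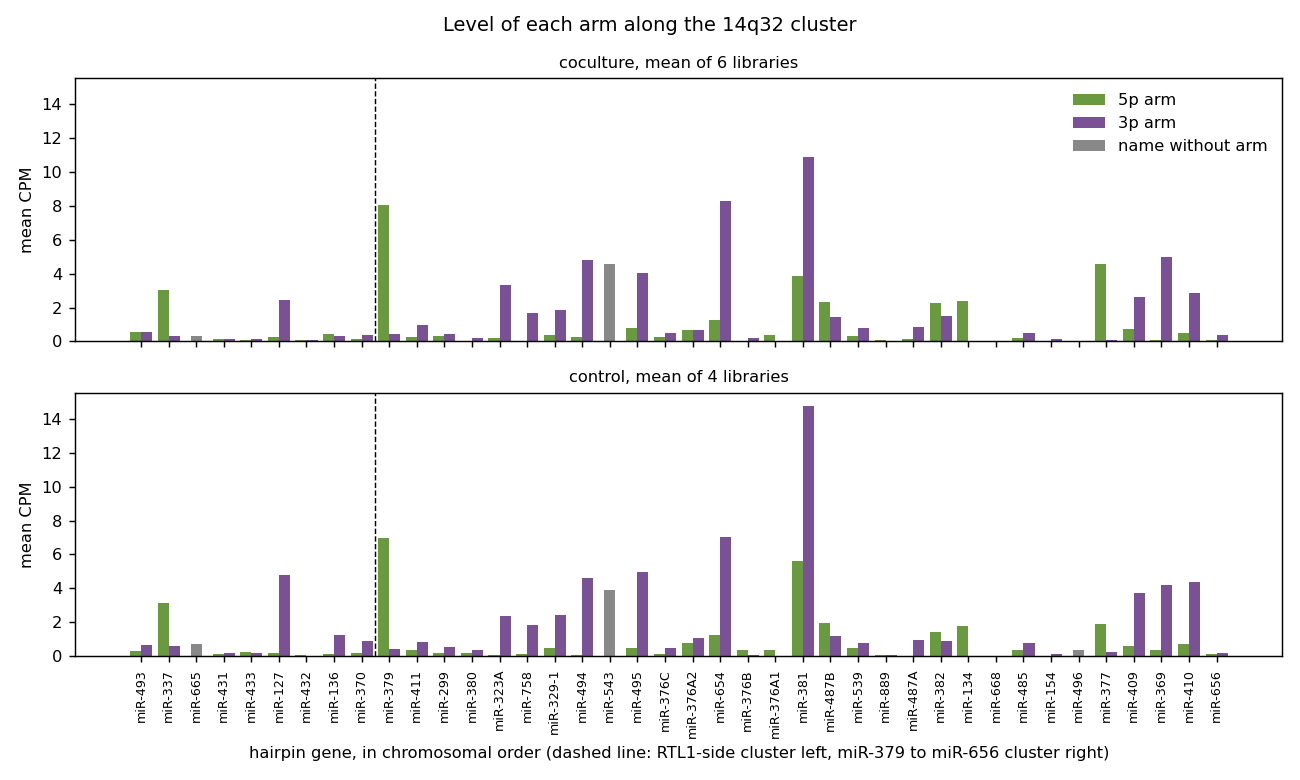
Mean level of each mature miRNA (TMM-scaled CPM) for the hairpin genes in chromosomal order, with coculture (mean of 6 libraries) above control (mean of 4). A name that comes from 2 hairpins is drawn at the first of them. In both panels miR-381-3p is highest, most hairpins show 1 main arm, and the hairpins left of the dashed line, the RTL1-side group, are low apart from miR-337-5p and miR-127-3p.

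Scaled by TMM, the members summed to 66.8 CPM in the lowest coculture library, 100 at the median and 122 in the highest, against 77.9, 110, 105 and 127.3 CPM in controls 1 to 4. The groups overlapped over nearly the whole range. Coculture averaged 99.03 ± 18.1 CPM and controls 105 ± 20.5 CPM (SD, n = 6 and 4), a ratio of 0.943, which is descriptive. The spread within a group was wider than counting error. Coculture 2 had 64 CPM of its unscaled total (95% exact binomial interval 57.4 to 71.2) and coculture 4 had 129.6 (120.0 to 139.8), while control 1 had 67.3 (60.9 to 74.3) and control 4 had 134.4 (124.6 to 144.7). These intervals cover counting error only. The ratio was 1.01 without control 4 and 1.004 without coculture 2.

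The larger group made up most of the sum, with 89.6 ± 17.7 CPM in coculture and 91.3 ± 16.1 CPM in controls. Its ratio was 0.982. The RTL1-side group was at 9.39 ± 1.81 CPM in coculture and 13.8 ± 4.73 CPM in controls, a ratio of 0.682. Its coculture libraries ran from 6.94 through a median of 9.58 to 12.03 CPM, and the controls stood at 8.44, 16.3, 11.4 and 18.9 CPM. Controls 2 and 4 lay above every coculture library, and controls 1 and 3 lay among them. Control 4, the highest, is also the library with 23130 CPM of miR-451a and with 91.6 CPM of miR-1-3p, a muscle miRNA that was at 7.93 to 52.9 CPM in coculture and 20.2 to 40.2 CPM in the other controls. The part of these in the level was not tested.

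**Figure D2:**
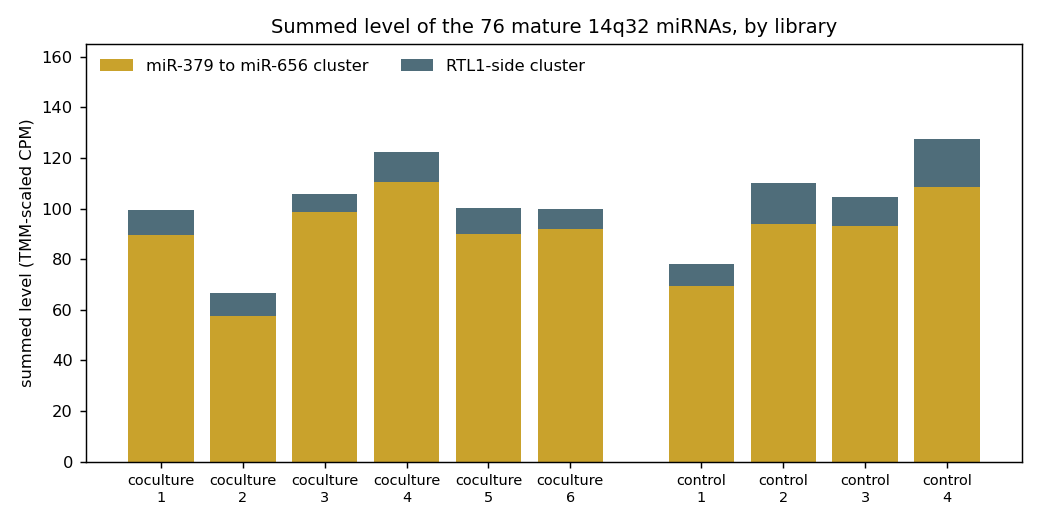
Summed level of the 76 members in each miRNA-seq library (TMM-scaled CPM), with the larger group below and the RTL1-side group stacked on it. The 6 coculture bars reach 66.8 to 122 CPM and the 4 control bars 77.9 to 127.3 CPM, and the RTL1-side segment is tallest in control 4.

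The question put to the members was whether any of them differed after coculture. None passed the test. A filter on low counts left 18 of the 76 members among 797 tested miRNAs, and edgeR's quasi-likelihood test called 0 of the 18 at an adjusted p under 0.05, where 1.25% of all tested miRNAs were called (1.13% higher and 0.125% lower in coculture). At an unadjusted p under 0.05 there were 2 of the 18, and 11.4% of all tested miRNAs. DESeq2 and limma-voom also called 0 of the members, with 2 and 1 at an unadjusted p under 0.05. The CPM ranges of the groups overlapped for all 18, while 3.26% of all tested miRNAs had ranges that did not overlap. The log2 fold changes of coculture minus control were positive for 10 members and negative for 8, with a median of 0.14 beside -0.05 for all tested miRNAs.

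Of the 18, 16 came from the larger group and 2, miR-127-3p and miR-337-5p, from the RTL1-side group. miR-127-3p, which in mouse placenta is known to cut the RTL1 transcript on the other strand, had the smallest p. It was at 1.83 CPM in the lowest coculture library, 2.25 at the median and 4.01 in the highest, against 3.53, 6.35, 2.99 and 6.19 CPM in controls 1 to 4. Coculture 4 lay above controls 1 and 3, and the other 5 coculture libraries lay below every control. The log2 fold change was -0.93 ± 0.30 (SE; 95% interval -1.58 to -0.29), with an unadjusted p of 0.00792 and an edgeR adjusted p of 0.259. With 1 library left out at a time, the value lay between -1.14 and -0.75, and the edgeR adjusted p lay between 0.128 (without coculture 4) and 0.748 (without control 4).

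miR-337-5p, from the same side of the locus, was at 1.78, 2.83 and 5.29 CPM (lowest, median and highest coculture library) against 1.37, 4.57, 2.80 and 3.83 CPM in the controls. The log2 fold change was -0.05 ± 0.37, and its interval of -0.86 to 0.75 spanned 0. The sign of its log2 fold change depended on single libraries.

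miR-377-5p, from near the far end of the larger group, had the other unadjusted p under 0.05. Coculture 4 held 12.9 CPM of it (71 reads), and the other 5 coculture libraries held 1.78 to 4.29 CPM (10 to 22 reads). The controls held 1.18, 2.78, 2.06 and 1.64 CPM. Apart from coculture 4, the groups overlapped widely. The coculture median was 2.89 CPM. The log2 fold change was 1.26 ± 0.56 (95% interval 0.05 to 2.47, unadjusted p = 0.0418, edgeR adjusted p = 0.401). Without coculture 4 it was 0.59 (edgeR adjusted p = 0.546).

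Of the miRNAs from the middle of the larger group, miR-381-3p was at 5.29, 11.2 and 14.8 CPM in coculture (lowest, median and highest library) against 8.44, 13.3, 20 and 17.3 CPM in the controls. Controls 3 and 4 exceeded every coculture library, and coculture 2 was lowest of all 10. The log2 fold change was -0.45 ± 0.29 (95% interval -1.07 to 0.18). The other arm of the same hairpin, miR-381-5p, was at 1.56, 3.91 and 6.05 CPM in coculture against 5.30, 6.55, 5.79 and 4.92 CPM in the controls. That gave a log2 fold change of -0.55 ± 0.30. Both arms of miR-381 thus had a negative log2 fold change, with edgeR adjusted p-values of 0.575 and 0.517.

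miR-654-3p was at 4.11, 8.36 and 10.5 CPM in coculture against 7.07, 6.75, 7.10 and 7.29 CPM in the controls. The 4 controls lay between 6.75 and 7.29 CPM, and coculture 2 alone lay below them. Its log2 fold change was 0.23 ± 0.23. miR-379-5p, from the first hairpin of the larger group, was at 4.70, 8.87 and 9.56 CPM in coculture and at 5.11, 7.35, 8.78 and 6.56 CPM in the controls. Its log2 fold change was 0.21 ± 0.24, with an interval of -0.30 to 0.72.

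miR-494-3p was at 1.96, 5.46 and 7.12 CPM in coculture against 4.71, 4.96, 3.55 and 5.28 CPM in the controls. In mouse tumors it is known from myeloid-derived suppressor cells themselves. Its log2 fold change of 0.07 ± 0.32 (95% interval -0.63 to 0.76) turned sign when single libraries were left out. miR-369-3p, known to act on the AU-rich element of the TNF mRNA in human monocytic cells, was at 3.25, 4.71 and 7.41 CPM in coculture and at 3.73, 3.38, 4.298 and 5.46 CPM in the controls, a log2 fold change of 0.24 ± 0.25.

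The neighbors miR-543 and miR-495-3p share the 3′ end of their sequences. miR-543 was at 1.96, 4.97 and 6.56 CPM in coculture against 3.93, 4.37, 2.24 and 5.10 CPM in the controls. miR-495-3p was at 2.35, 4.07 and 5.24 CPM in coculture against 4.32, 5.56, 3.55 and 6.38 CPM in the controls. Their log2 fold changes were 0.24 ± 0.32 and -0.30 ± 0.26. In both, coculture 2 was the lowest library.

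Toward the end of the cluster, miR-410-3p was at 1.43, 2.87 and 4.11 CPM in coculture against 1.18, 2.58, 5.98 and 7.83 CPM in the controls, where control 1 was lower than every coculture library and controls 3 and 4 were higher. The resulting log2 fold change was -0.60 ± 0.43, and it was -0.15 without control 4 and -0.92 without control 1. miR-409-3p was at 0.979, 2.73 and 3.91 CPM in coculture against 2.55, 4.57, 2.62 and 5.10 CPM in the controls, a log2 fold change of -0.49 ± 0.35. Nearer the start of the larger group, miR-323a-3p was at 0.979, 3.61 and 4.53 CPM in coculture against 3.14, 2.38, 2.06 and 1.82 CPM in the controls, a log2 fold change of 0.49 ± 0.35. Coculture 2 was again the lowest library for both miRNAs.

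miR-134-5p, known in rodent neurons for restraining dendritic spine growth through LIMK1, was at 1.83, 2.23 and 3.46 CPM in coculture against 0.785, 2.18, 2.43 and 1.64 CPM in the controls. Its log2 fold change was 0.43 ± 0.32. miR-382-5p, from the neighboring hairpin, was at 0.813, 2.40 and 3.28 CPM in coculture against 1.57, 0.993, 1.68 and 1.46 CPM in the controls, a log2 fold change of 0.68 ± 0.36 (unadjusted p = 0.0825, edgeR adjusted p = 0.513). All but 1 of its coculture libraries, the exception being coculture 5, lay above every control. The remaining tested members, miR-487b-5p and miR-329-3p, had log2 fold changes of 0.28 ± 0.47 and -0.37 ± 0.40.

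**Figure D3:**
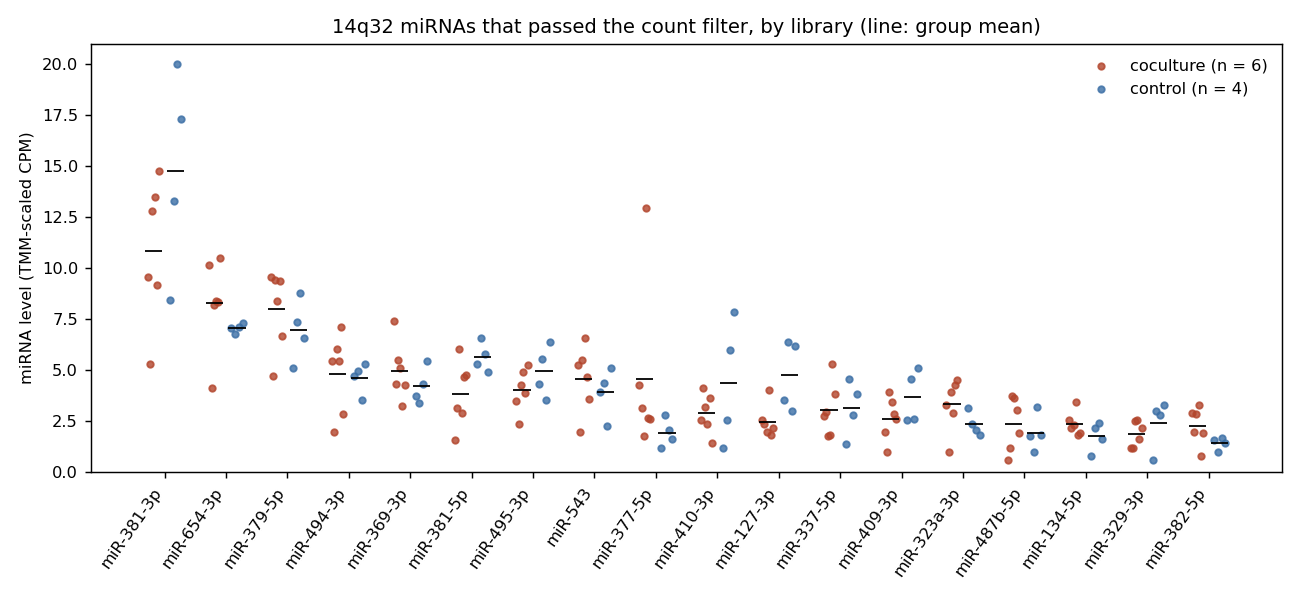
Level of the 18 tested members in each library (TMM-scaled CPM), with 6 coculture libraries left of 4 control libraries and a line at each group mean. The groups overlap for every member, and 1 coculture point of miR-377-5p, at 12.9 CPM, lies far above the rest of its group.

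The precision of these values limits what they can show. Standard errors of the 18 log2 fold changes ran from 0.23 to 0.56. For 7 of the 18 the 95% interval stayed within a 2-fold difference in either direction, and for the other 11 it did not. The edgeR adjusted p-values ran from 0.259 to 0.966.

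**Figure D4:**
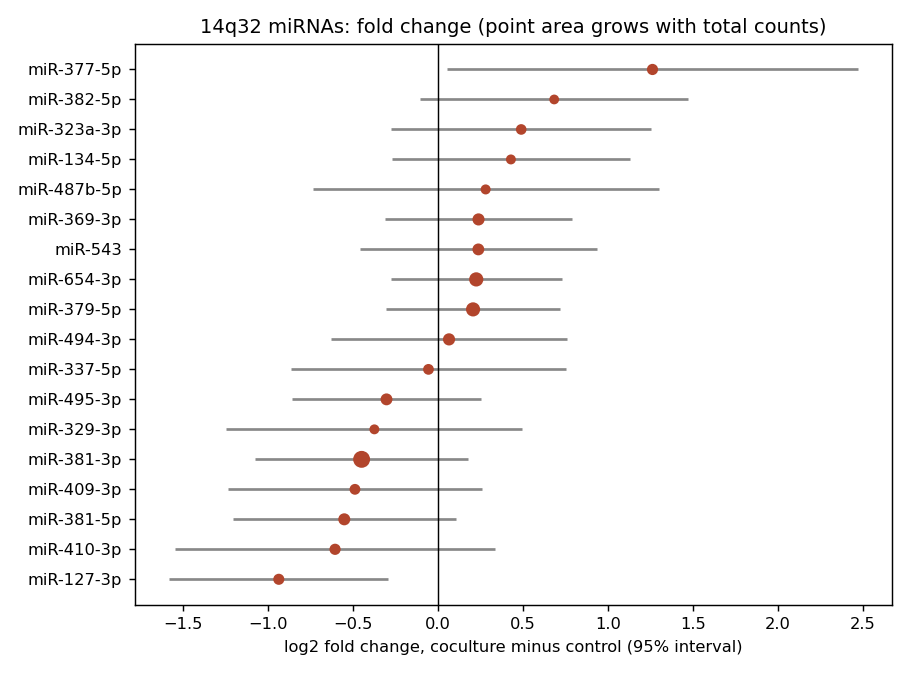
Log2 fold change of coculture minus control for the 18 tested members, sorted, with the 95% interval as a line and the area of the point growing with the total reads. Intervals leave out 0 for miR-377-5p and miR-127-3p alone, neither of which passed the threshold after adjustment over 797 miRNAs.

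In the 58 members that did not pass the filter, levels averaged at most 1.74 CPM, that of miR-758-3p, and the floor of 3 reads per library was 0.509 to 0.755 CPM. miR-136-3p, which lies opposite RTL1, had 10 reads over the 6 coculture libraries and 27 over the 4 controls, of which control 4 held 17. The other arm of that hairpin, miR-136-5p, had 13 reads in coculture and 3 in controls. miR-376b-5p and miR-496 had 1 read each over the coculture libraries and 8 each over the controls. miR-494-5p had 8 in coculture and 2 in controls, and miR-487a-5p 4 in coculture and 0 in controls. These uneven cases were picked after the counts were seen. Other untested members were closer to even, such as miR-493-3p with 16 reads in coculture and 14 in controls. The CPM ranges of the groups overlapped for all 76 members. miR-154-5p and miR-668-5p had no read.

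Which arm of a hairpin was kept could be read from the counts, and the name rule did not use it. Of 36 hairpin names with both arms listed and a read, 16 had at least 100 reads in all. Pooled over the 10 libraries, the 3p arm had more reads in 10 of the 16 and the 5p arm in 6. The 95% exact binomial intervals of the pooled 5p shares cover counting error only, not the spread between libraries. The 5p share was lowest in miR-494, at 3.91% (1.89% to 7.07%), and also low in miR-369 at 4.35%, miR-323a at 5.10% and miR-127 at 6.38%. It was highest in miR-134, at 99.1% (95.1% to 99.98%), followed by miR-377 at 96.3%, miR-379 at 94.7% and miR-337 at 87.2%. miR-487b and miR-382 had reads of both arms, with pooled 5p shares of 62.6% (55.2% to 69.7%) and 61.6% (53.7% to 69.1%). Single libraries fell on both sides of an even split, from 30% to 100% in coculture and 29.4% to 89.5% in controls for miR-487b, and from 26.7% to 80% in coculture and 35.7% to 100% in controls for miR-382. For the most abundant hairpin, miR-381, the 5p share was 26.8% (23.9% to 29.9%).

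Pooled 5p shares of the 3 hairpins with the most reads lay close together in the groups. The pooled 5p share of miR-381 was 26.2% in coculture and 27.4% in controls, and single libraries ran from 14.04% to 37.2% in coculture and from 22.1% to 38.6% in controls. That of miR-654 was 13.8% and 14.9%, and that of miR-379 was 95% and 94.2%. The largest gap among the 16 was in miR-377, with 98.6% in coculture and 88.9% in controls, on 7 reads of the 3p arm in all. These shares were not tested.

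Other miRNAs set a scale for the cluster's level. The 76 members had a median of 23.5 reads over all libraries, and the 2656 miRNAs of the table had 28. The 66 miRNAs of the imprinted chromosome 19 cluster, known from placenta, had a median of 9 reads and at most 1075, and 6 of them passed the filter with 0 called. Their sums ran from 26.8 to 65.3 CPM in coculture and from 34.4 to 82.7 CPM in controls. The 16 further 14q32 miRNAs outside the name rule had a median of 13.5 reads, and 1 passed the filter with 0 called. Among 6 miRNAs of liver, muscle, heart and brain, chosen after their values were seen, miR-122-5p of liver had 766 reads over all libraries, more than the 641 of miR-381-3p, and miR-1-3p had 1544. miR-124-3p, of neurons, had 28.

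Among white blood cell miRNAs, control 4 again stood apart from the other controls. miR-223-3p, a myeloid miRNA, was at 34.9 to 82.2 CPM in coculture against 3.14, 3.18, 3.18 and 53.9 CPM in controls 1 to 4, and miR-142-3p, of all white blood cells, at 27.4 to 101 CPM against 4.12, 3.57, 2.80 and 60.5 CPM. Control 4 thus lay among the coculture libraries for both. For miR-223-5p, the other arm of the miR-223 hairpin, it did not: coculture held 4.29 to 7.29 CPM and controls at most 3.10 CPM (log2 fold change 2.59 ± 0.64, edgeR adjusted p = 0.0846). miR-142-5p was at 41.1 to 198 CPM in coculture and 18.9 to 464 CPM in controls. Over the list of 10 blood cell miRNAs, all with reads, the sums ran from 3285 to 5548 CPM in coculture and from 2608 to 27090 CPM in controls. The list holds miR-451a, miR-144-3p and miR-486-5p of red cells, and miR-451a alone made 23130 CPM of the highest sum, that of control 4. In every other library miR-155-5p was the largest part of the sum. It was at 2655 to 3762 CPM in coculture and 1692 to 3036 CPM in controls, so the sums mostly do not follow miR-223 or miR-142. Of these 10, 9 were tested and 0 were called by edgeR. The part of such cells in the level of the 14q32 members was not tested. The summed cluster was at 66.8 to 122 CPM in coculture, at 77.9, 110 and 105 CPM in controls 1 to 3, and at 127.3 CPM in control 4.

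The listed long RNAs of the domain were nearly absent from RNA-seq. From the start of DLK1 to the end of DIO3, at 100726865 to 101562411 on chromosome 14 (836 kb), the deposited table lists 115 features. Of these, 4 had a read in any library, or 3.48%, beside 55.5% of the features elsewhere. All 10 libraries together gave 31 reads there out of 429162030, and the controls gave 0. DLK1, a membrane protein of the Notch ligand family, RTL1, a retrotransposon-derived placental protein, and DIO3, the deiodinase that inactivates thyroid hormone, had 0 reads in every library. So did the noncoding genes MEG8, MEG9, DIO3OS and MIR381HG. Of 41 C/D box snoRNA genes of the domain 1 had a read, while 59.4% of SNORD genes elsewhere did. Of 54 miRNA genes of the domain 0 had a read, against 31% elsewhere.

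The nearest genes with a mean of at least 1 CPM were then sought on both sides. WDR25, the nearest gene upstream with a mean of at least 1 CPM, ends at 100530303, and PPP2R5C, a phosphatase subunit gene at 52.4 CPM, begins at 101760573. WDR25 was at 6.15 ± 1.05 CPM in coculture and 5.83 ± 0.65 CPM in controls, a log2 fold change of 0.08 ± 0.15 (edgeR adjusted p = 0.908), and its sign turned without coculture 1. Of all 15629 genes tested in RNA-seq, 1.32% were called (1.14% higher and 0.186% lower). The 1230 kb between WDR25 and PPP2R5C held 125 features, of which 11 had a read. They had 273 reads in all, of which 31 fell from DLK1 to DIO3. BEGAIN, between WDR25 and DLK1, had 2 reads in coculture and 0 in controls.

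MEG3, the noncoding RNA from the start of the maternal unit (100826108 to 100861026, plus strand), had 28 reads in coculture 1, or 0.642 CPM, and 0 in each of the other 9 libraries. A count of 0 allowed up to 0.0622 to 0.0746 CPM, at 3 reads per library. The same RNA-seq library was the one with stromal genes. COL1A1, a chain of type I collagen, had 2922 reads in coculture 1, and 67 to 272 in the other coculture libraries, against 82 to 186 in controls. COL1A2 had 2214 reads there, and 0 to 12 in the other 5 coculture libraries, against 0 or 1 in controls. DCN, the proteoglycan decorin, had 388 reads there and POSTN, the matrix protein periostin, 168, with 0 in each of the other 9 libraries.

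Summed over the 10 stromal markers, all of which had reads, coculture 1 held 153.8 CPM, the other coculture libraries 3.45 to 9.89 CPM and the controls 3.81 to 7.22 CPM. The part of stromal RNA in the MEG3 reads was not tested. Without coculture 1, MEG3 was at 0 throughout. In miRNA-seq, the library numbered coculture 1 held 99.3 CPM of the cluster, between the other coculture libraries. The labels do not say whether libraries with the same number in the 2 assays came from the same RNA. MEST, another imprinted gene, had 8 reads in coculture 1, 10 in coculture 5 and 0 elsewhere.

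**Figure D5:**
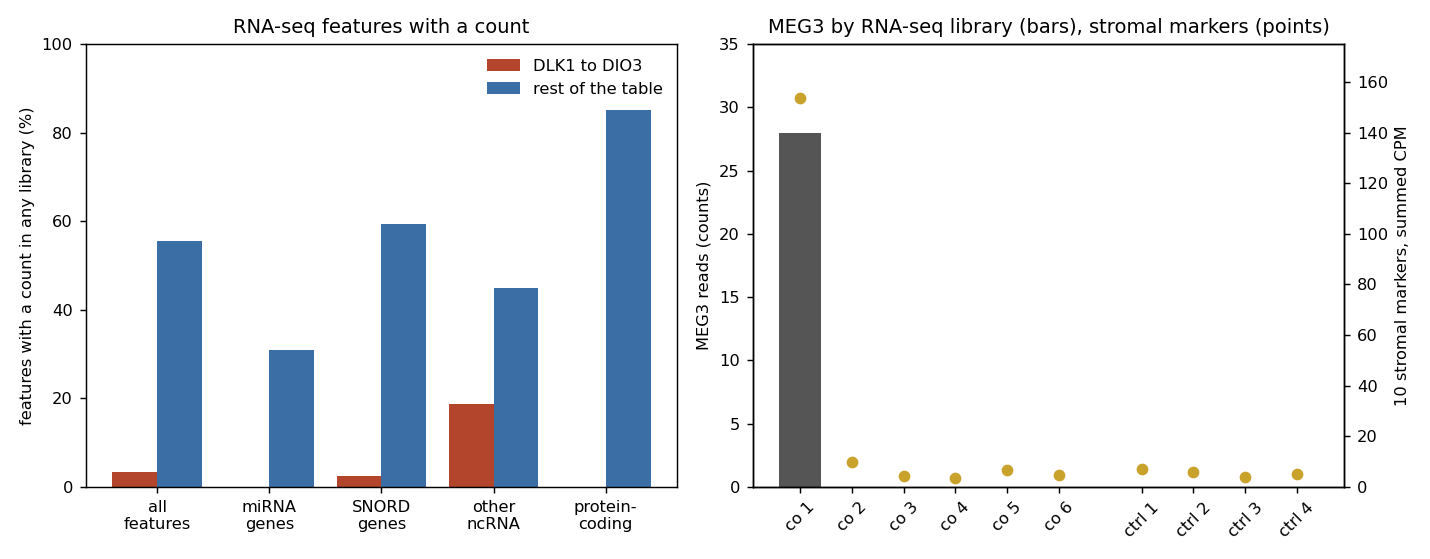
Left, the share of RNA-seq features with a read in any library, from DLK1 to DIO3 beside the rest of the table, for all features and by kind, with 3.48% against 55.5% for all. Right, MEG3 reads (bars) and the summed CPM of 10 stromal markers (points) in each RNA-seq library, 6 coculture libraries left of 4 controls, where coculture 1 alone has MEG3 reads.

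Most genes listed for making miRNAs and keeping imprints passed the count filter. Of 22 genes for miRNA processing and loading, 20 were tested and edgeR called 0 higher and 0 lower. The median log2 fold change of those tested was -0.11 beside 0.01 for all genes. Those not tested, LIN28A and LIN28B, had 0 and 5 reads in coculture and 1 and 0 in controls. DROSHA, the nuclear enzyme that cuts the hairpin out, was at 54.6 ± 8.39 CPM in coculture and 60.1 ± 1.05 CPM in controls, and DICER1, which cuts the loop off, at 26.2 ± 3.19 and 30.06 ± 5.43 CPM. AGO3, an Argonaute that carries the mature strand, had the smallest p of the list, with 14.1 ± 2.12 CPM in coculture and 18.3 ± 2.08 CPM in controls (edgeR adjusted p = 0.308).

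Of 15 genes listed for the upkeep of imprints, 13 were tested and 0 were called by edgeR. Of the 13, 4 were at an unadjusted p under 0.05 (9.66% of all genes were), and their median log2 fold change as a list was -0.16. ZNF445, a zinc finger protein that guards imprints in human cells, was at 23.7 ± 2.92 CPM in coculture and 31.3 ± 2.94 CPM in controls. Its ranges did not overlap, as for 3.62% of all genes tested, and its log2 fold change was -0.40 ± 0.11 (unadjusted p = 0.00323, edgeR adjusted p = 0.143). DNMT3B, a de novo methyltransferase, leaned the other way, at 27.5 ± 6.07 CPM in coculture and 18.9 ± 5.60 CPM in controls (log2 fold change 0.54 ± 0.21, unadjusted p = 0.0226, edgeR adjusted p = 0.385). ZFP57, which also guards imprints, had 0 reads, and DPPA3, another gene of the list, had 1 in coculture and 0 in controls. The rest of the 4 were TET1 (log2 fold change -0.72 ± 0.30, edgeR unadjusted p = 0.0324) and UHRF1 (-0.24 ± 0.11, edgeR unadjusted p = 0.0451). DNMT1, the maintenance methyltransferase, was at 333 ± 59.2 CPM in coculture and 393 ± 24.6 CPM in controls (edgeR adjusted p = 0.586).

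Imprinted genes of other domains were not all silent. Of 13, 12 had a read, 7 were tested and 0 were called by edgeR, with a median log2 fold change of 0.01. GNAS, the stimulatory G protein subunit, was at 722 ± 152 CPM in coculture and 688 ± 25.1 CPM in controls, and GRB10, a receptor adaptor, at 79.7 ± 15.2 and 78.3 ± 8.29 CPM. H19, a maternal noncoding RNA, had 0 reads, and IGF2, its paternal neighbor, 6 in coculture and 1 in controls.

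Myeloid and leukocyte markers with reads had higher means in coculture in RNA-seq. Of 12 myeloid and leukocyte genes, 10 had a read and 6 passed the filter, and all 6 were called higher in coculture, where 1.14% of all genes were called higher. Over the controls CD53 and TYROBP had 0 reads, S100A9 had 1, ITGAM 3 and LYZ 15. These genes passed the filter through the coculture libraries alone, so their calls were nearly fixed in advance and add no separate support. ITGB2, the remaining gene, had 2850 reads in coculture and 257 in controls. LYZ, the lysozyme of myeloid cells, was at 13.9 ± 2.17 CPM in coculture and 0.086 ± 0.0782 CPM in controls. Among neutrophil genes, S100A9 (235 reads in coculture and 1 in controls) was one of the 6, S100A8 had 53 in coculture and 0 in controls, CSF3R 11 and 0, and MPO 10 and 0. FCGR3B and ELANE had 0 reads in every library. Of 10 platelet genes, 0 passed the filter, and their sums were 0.253 to 1.36 CPM in coculture and 0.113 to 0.291 CPM in controls, with PF4, GP9, GP1BB and CLEC1B at 0 reads. PPBP, a platelet chemokine, had 62 reads in coculture and 0 in controls, with ranges that did not overlap. Such ranges were found for 3.62% of all genes tested. PPBP did not pass the filter and was not tested, so that share is no measure for it. GP1BA, a platelet adhesion receptor, had 51 reads in coculture and 7 in controls.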

How the data were processed

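Small-RNA and RNA sequencing of TPC-1 cells was deposited as 2 tables of raw read counts per mature miRNA and per gene, made by the authors for 10 libraries each. Per the submitters' processing notes, BWA, HISAT2 2.0.4 and GRCh38.p10 were used, with no role given. Neither the counting tool nor the annotation, miRBase release or strand setting is given in the sources used here. Groups came from the labels. Each table was fitted with edgeR 4.0.16 in R 4.3.3 (TMM, filterByExpr, robust quasi-likelihood test, coculture against control, no covariate), with Benjamini-Hochberg adjustment over all features tested and a threshold of 0.05. The fit was tested on simulated data. CPM are TMM-scaled. Standard errors are the absolute log2 fold change over the root of F. DESeq2 1.42.0, limma 3.58.1 (voom), other scalings and filters and left-out libraries were alternatives. At 3 counts the floor of a miRNA library was 0.509 to 0.755 CPM. The smallest chi-square per degree of freedom between libraries of a group was 24.6 (miRNA) and 6.86 (RNA), so none was a duplicate. Named members were the 12 most abundant and the 10 with the smallest p. Named genes were those of the locus with a read, and up to 6 of each other list. Further genes were named to report zeros, defining markers or large values, after their values were seen. The members and lists were chosen with earlier results of these data known.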

Additional observations from a re-analysis of the deposited data

Results flagged for a closer look

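Dixon's test at 95% was applied to 50 sets of values of 1 group, and 8 gave a library apart from the rest. Chance alone would give about 1 in 20 for independent sets. These sets were not independent, since the stromal sum contains COL1A1 and LUM. MEG3, at 0 in the other coculture libraries, would be flagged at any level. The 8 are therefore no measure of an excess over chance. Among the miRNAs, miR-654-3p was at 4.11 CPM in coculture 2, with the next coculture library at 8.18 CPM. miR-377-5p was at 12.9 CPM in coculture 4, with the next at 4.29 CPM. miR-127-3p was at 4.01 CPM in coculture 4, with the next at 2.54 CPM. In RNA-seq, coculture 1 held MEG3 at 0.642 CPM, with the other coculture libraries at 0. The same library held a stromal sum of 153.8 CPM (next 9.89 CPM), COL1A1 at 67 CPM (next 5.72 CPM) and LUM, the proteoglycan lumican, at 6.35 CPM (next 2.38 CPM). WDR25 was at 6.80 CPM in control 4, with the next control at 5.56 CPM.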

How the results depend on the processing

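The count of 14q32 members called was 0 under every alternative run, with 74 members tested where no filter was used, and the smallest adjusted p of a named member was 0.128. Of the 16 named members, 14 kept their sign. The log2 fold change of miR-494-3p (0.07) was -0.039 in limma-voom, -0.0077 under the replicate block and -0.075 to 0.243 without 1 library. That of miR-337-5p (-0.05) was -0.303 to 0.186 without 1 library, and 0.173 without coculture 4 and control 4, a pair chosen after seeing the data. That of WDR25 (0.08) was -0.0038 to 0.158 without 1 library (-0.0038 without coculture 1) and -0.0896 without cocultures 1 and 2. The cause of these turns was not tested.

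The ratio of summed levels (0.943) was 0.682 for the RTL1-side group alone and 0.868 to 1.01 without 1 library. The count of all called miRNAs (10) was 6 with library totals, 16 with no filter, 16 with DESeq2 and 5 to 12 without 1 library. The count of called genes (207) was 439 with DESeq2, 322 without cocultures 1 and 2 and 116 to 227 without 1 library, where control 4 (116) and control 3 (119) moved it most. Same-numbered libraries correlated at -0.03 to 0.37 in miRNA-seq and -0.08 to 0.35 in RNA-seq, above 0.1 for 3 of 4 numbers in each assay. In each assay, 2 of 4 controls correlated best with their own number. These values do not settle whether the numbers are pairs. The labels do not state pairs, and the main fit did not use the number. With the number as a block, 9 miRNAs and 110 genes were called. miR-382-5p did not pass the filter in 5 alternatives. At 101 to 641 reads per tested member, standard errors of 0.23 or more limit what can be seen.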
